A study of Mus musculus with 42 samples.

Results

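The genes described here are 10 genes of mature dendritic cells and of T cell costimulation, Ccr7, Ccl17, Ccl22, Fscn1, Cd40, Cd80, Cd86, Cd83, Relb and Il12b, taken by name from the 26811 genes of the count matrix. All 10 were present in it. The rule itself uses no measured value, and 9 of the 10 had enough counts to enter the test across genes. The exception was Ccl17, which is described from its counts in each tumor.

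RNA of 42 whole MC38 tumors, each from its own mouse, was sequenced in bulk. MC38 is a mouse colon carcinoma line of C57BL/6 origin, and 500000 cells were placed under the skin of female mice of 8 to 12 weeks, all F1 hybrids of CC075/UncJ and C57BL/6J. The isotype control group (n = 5) received isotype antibodies throughout and no aPD1. The aPD1 group (n = 6) received 200 µg of antibody to PD-1 once, at a tumor volume of 75 to 110 mm3, and its tumors were collected after 48 h. Before that dose these mice had isotype antibodies in place of the blocking antibodies, every 3 days from engraftment. The aPD1 + aGMCSF group (n = 9) received the same dose of aPD1 after 100 µg of antibody to the cytokine GM-CSF on that schedule. The aPD1 + aIL2RB group (n = 11) received 200 µg of antibody to IL2RB, the receptor chain that IL-2 and IL-15 share, on the same schedule. The aPD1 + aGMCSF + aIL2RB group (n = 11) received both blocking antibodies. All groups carry the same tumor line and the same host genotype, so the groups model 1 tumor in 1 hybrid host, sampled once.

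Dendritic cells take up antigen in tissues and, on maturation, present it to T cells. A maturing dendritic cell gains the chemokine receptor CCR7, which guides it to lymph nodes, and the actin bundling protein fascin (Fscn1). It also gains the costimulatory ligands CD80 and CD86, which bind CD28 and CTLA4 on T cells, and the receptor CD40, through which helper T cells signal. The chemokines CCL17 and CCL22 attract cells bearing CCR4, among them regulatory T cells, and Il12b encodes the p40 chain shared by IL-12 and IL-23. RELB is an NF-κB subunit of the alternative pathway downstream of CD40. None of the 10 genes is expressed by mature dendritic cells alone. Macrophages and B cells express Cd40, Cd80 and Cd86, T cells express Ccr7, and many tumor lines express Fscn1.

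Ccl17 and Ccl22 gave the largest contrasts among the 10 genes and are neighbors, so their promoters are shown. On GRCm38, Ccl22 lies at chr8:94745590-94751699 and Ccl17 at chr8:94810453-94812036, both on the plus strand, with 64.9 kb between their starts. RefSeq (GRCm38.p6) promoters, from 250 bases before to 50 bases after the start as RefSeq gives it, were found for 5 of the 10 genes. The Ccl22 window covers chr8:94745434-94745733 and the Ccl17 window chr8:94810203-94810502. Capitals mark a match to the palindrome TTCNNNNGAA, the form bound by STAT6, searched on both strands.
Ccl17: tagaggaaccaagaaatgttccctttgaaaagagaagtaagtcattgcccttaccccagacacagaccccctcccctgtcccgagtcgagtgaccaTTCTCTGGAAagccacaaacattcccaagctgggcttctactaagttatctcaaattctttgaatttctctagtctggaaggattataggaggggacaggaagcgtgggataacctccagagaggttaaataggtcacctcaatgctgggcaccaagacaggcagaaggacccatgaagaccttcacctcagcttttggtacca
Ccl22: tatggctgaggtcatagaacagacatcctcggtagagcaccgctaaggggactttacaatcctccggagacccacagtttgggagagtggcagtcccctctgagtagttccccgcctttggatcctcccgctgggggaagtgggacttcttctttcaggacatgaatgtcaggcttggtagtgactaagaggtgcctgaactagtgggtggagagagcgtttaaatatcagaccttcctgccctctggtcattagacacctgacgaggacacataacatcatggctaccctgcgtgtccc
The match in Ccl17, TTCTCTGGAA, begins at position -154 from the start, and 6.95% of 32851 promoters of this length hold such a match. The Ccl22 window held no match to these letters. Neither window held a match to the NF-κB consensus, which 8.46% of promoters hold. A match is a string of letters and not a measured site, and no binding was assayed here.

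The other members lie elsewhere in GRCm38. Ccr7 lies at chr11:99144196-99155077 and Il12b at chr11:44400063-44414033. Cd80 lies at chr16:38455561-38496335 and Cd86 at chr16:36603869-36666081. Fscn1 lies at chr5:142960343-142973185, Cd40 at chr2:165055627-165072948, Cd83 at chr13:43784775-43803132 and Relb at chr7:19606217-19629438. Counts were summed over whole genes, so exons were not told apart.

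Levels are given as CPM, counts scaled to a common library size by TMM, and fold changes as log2 values with their standard error. Total counts ran from 7155486 to 24101674 per tumor. In the fit of 16932 genes with edgeR's quasi-likelihood test, a gene is called where its Benjamini-Hochberg adjusted p is below 0.05. In these bulk tumors, fewer cells of a type and less RNA per cell cannot be told apart. The tumors also parted, with exceptions, along their replicate numbers into a first set of 22 and a second set of 20 tumors that no label names. On the leading component within groups (11.8% of the variance), 19 of 22 and 18 of 20 lay on opposite sides, and the aPD1 tumors of the sets were mixed on it. The first set holds isotype control replicates 1 and 2, aPD1 1 to 3, aPD1 + aGMCSF 1 to 5, aPD1 + aIL2RB 1 to 6 and aPD1 + aGMCSF + aIL2RB 1 to 6. With treatment in the model, 25.1% of genes were called between the sets, a description, since the split was read from these same data. Among the members, Ccl22, Il12b, Cd83, Ccr7 and Cd80 were lower in the second set.

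The 10 genes spanned a wide range of expression when divided by merged exon length. In isotype control tumors, Fscn1 stood at 88.7 ± 5.36 CPM per kb (SD, n = 5), far above all others. Relb followed at 7.41 ± 0.714 CPM per kb and Cd83 at 4.90 ± 1.66 CPM per kb. Cd86 stood at 4.07 ± 0.345 CPM per kb, within the spread of Cd83. Cd40 at 1.91 ± 0.400 CPM per kb lay above Ccr7 at 1.08 ± 0.318 beyond their SDs. Ccl22 at 2.15 ± 1.66 and Ccl17 at 1.32 ± 1.33 CPM per kb could not be ordered against each other or against Cd40 and Ccr7. Il12b at 0.692 ± 0.350 and Cd80 at 0.680 ± 0.156 CPM per kb had the lowest means, with SDs that overlapped those of Ccl22, Ccl17 and Ccr7 but not that of Cd40. The tumors therefore carried a high fascin signal beside low levels of the chemokines, of Il12b and of Cd80.

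**Figure D1:**
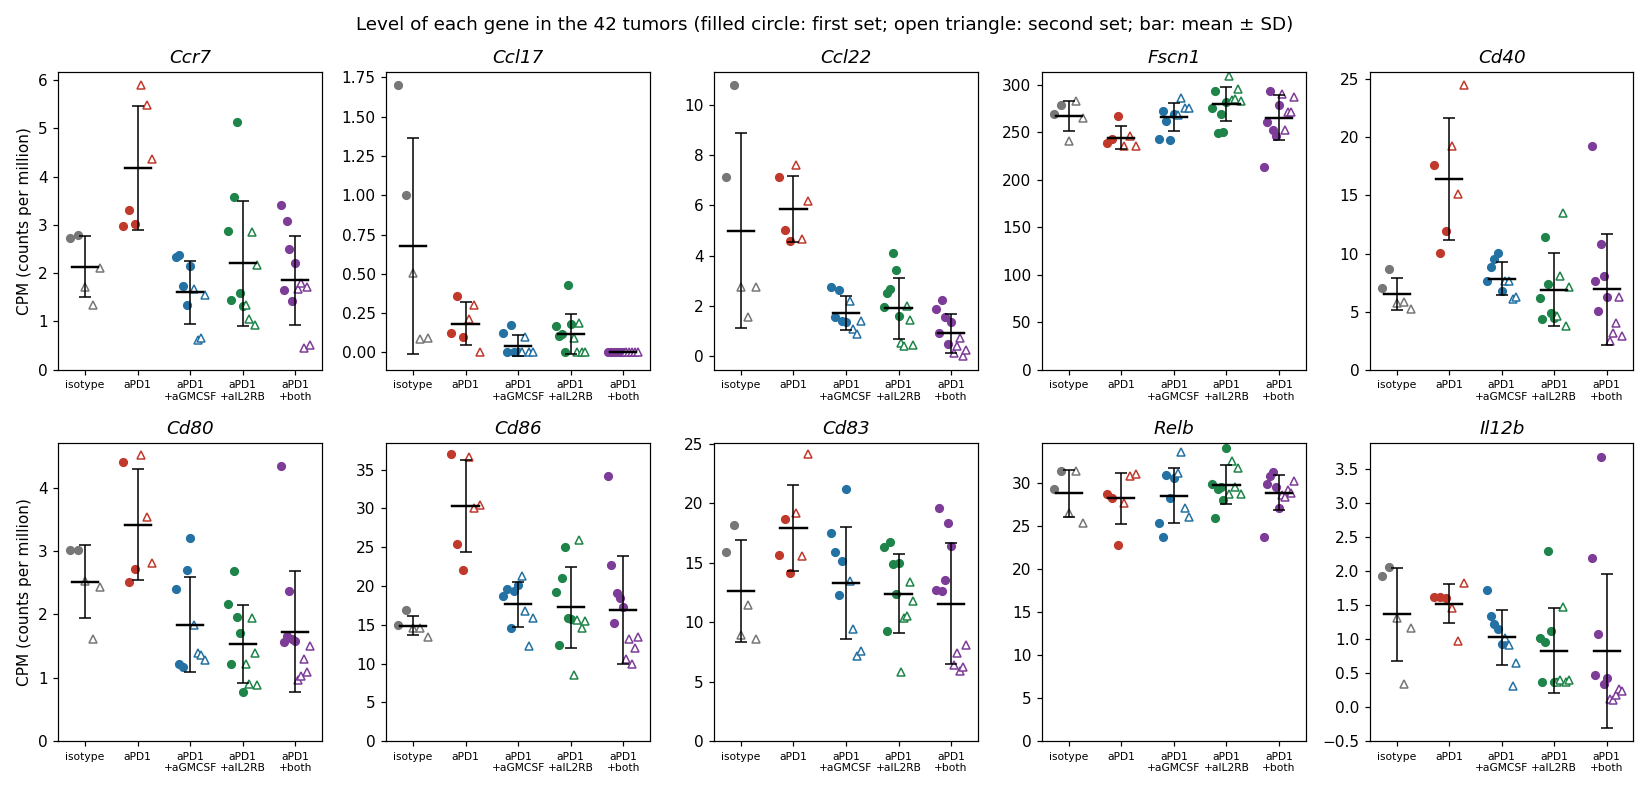
Each point is 1 of 42 tumors, with CPM on a linear vertical axis of its own for each gene, and black bars give the mean ± SD of the group. In the aPD1 group the points of Ccr7, Cd40 and Cd86 all lie above those of the isotype control group, and Ccl17 lies at 0 in all 11 tumors given both blocking antibodies (shown as +both).

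The first comparison asks what aPD1 alone did to these genes. Cd40 and Cd86 rose with aPD1, each to over the highest isotype control tumor in all 6 tumors. The other 7 tested members were not called. The called share was 2 of 9, against 8.71% of all genes tested in this comparison. The median log2 fold change was 0.44 over the 9 members and -0.0023 over all genes.

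Cd40 stood at 7.03, 8.63, 5.75, 5.82 and 5.23 CPM in isotype control replicates 1 to 5. In the aPD1 group it ran from 10.1 to 24.5 CPM with a median of 16.4. The groups did not overlap, and the mean rose from 6.49 ± 1.36 (SD, n = 5) to 16.4 ± 5.22 CPM (SD, n = 6). On the log2 scale this was a rise of 1.34 ± 0.35 (SE), with an edgeR adjusted p of 0.0141. Cd86 stood at 15.01, 16.89, 14.57, 14.60 and 13.40 CPM in the isotype control tumors and between 22.1 and 36.995 CPM, with a median of 30.3, under aPD1. These groups did not overlap either. The fitted log2 change was 1.02 ± 0.23 (SE), edgeR adjusted p = 0.00526.

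Ccr7 was the third member without overlap, and 3.38% of all genes tested had every aPD1 tumor above every isotype control tumor. It stood at 2.74, 2.78, 1.71, 1.35 and 2.10 CPM in the isotype control tumors and at 2.98 to 5.90 CPM (median 3.83) under aPD1. Its log2 fold change of 0.96 ± 0.41 (SE) was not called (edgeR adjusted p = 0.131). It was called when the fit held only these 2 groups (edgeR adjusted p = 0.0379). The lower edge of the aPD1 tumors thus lay just above the upper edge of the isotype control tumors.

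The remaining members were not called. For Cd83 the log2 change was 0.51 ± 0.29 (SE, edgeR adjusted p = 0.285), and for Cd80 it was 0.44 ± 0.32 (SE, edgeR adjusted p = 0.423). Fscn1, at 267 ± 16.2 CPM in isotype control and 244 ± 11.9 CPM in aPD1 tumors, had a log2 change of -0.13 ± 0.06 (SE), edgeR adjusted p = 0.190. Relb stood at 28.8 ± 2.77 CPM (SD, n = 5) and 28.2 ± 2.98 CPM (SD, n = 6). Il12b stood at 1.36 ± 0.689 and 1.52 ± 0.289 CPM, and Ccl22 at 5.00 ± 3.86 and 5.87 ± 1.31 CPM. For Ccl22, Cd83 and Il12b the direction within the first set was opposite to that over all tumors.

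The next question is where these genes stood when GM-CSF was blocked before aPD1. Ccr7, Ccl22, Cd40, Cd80 and Cd86 were lower with aPD1 + aGMCSF than with aPD1 alone. That is 5 of 9 members called, all lower, where 13.5% of all genes were called and 8.75% were called lower. The median log2 fold change was -0.78 over the members and 0.01 over all genes.

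Ccr7, the lymph node homing receptor, ran from 0.623 to 2.37 CPM with a median of 1.67 in the 9 aPD1 + aGMCSF tumors, all below the lowest aPD1 tumor at 2.98 CPM. This gave a log2 difference of -1.39 ± 0.35 (SE) and an edgeR adjusted p of 0.00581. Ccl22 ran from 0.901 to 2.76 CPM (median 1.42) against 4.57 to 7.62 CPM (median 5.61) in aPD1 tumors, again without overlap. On the log2 scale the difference was -1.78 ± 0.47 (SE), at an edgeR adjusted p of 0.00813. Cd86 also separated the groups, with a highest aPD1 + aGMCSF tumor of 21.3 CPM below a lowest aPD1 tumor of 22.1 CPM. Over all genes tested, 2.2% lay wholly below the aPD1 group in this comparison.

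Cd40 ran from 6.11 to 10.1 CPM (median 7.66), and 8 of 9 tumors were below the lowest aPD1 tumor. The fitted log2 change was -1.07 ± 0.29 (SE), edgeR adjusted p = 0.0115. Cd86 fell by 0.78 ± 0.20 on the log2 scale (SE, edgeR adjusted p = 0.00572). Cd80, the second CD28 ligand, had a log2 change of -0.90 ± 0.28 (SE), edgeR adjusted p = 0.0255, with 7 of 9 tumors below the lowest aPD1 tumor. This call on Cd80 was lost without aPD1 replicate 1 (edgeR adjusted p = 0.0658) and without aPD1 replicate 4 (edgeR adjusted p = 0.0905). Cd83, Fscn1, Relb and Il12b were not called. Cd83 was called lower once the set was a term of the model (-0.58 on the log2 scale, edgeR adjusted p = 0.0316). Relb ran from 23.7 to 33.6 CPM against 22.8 to 31.01 CPM in aPD1 tumors, with 2 of 9 tumors above the highest aPD1 tumor.

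With IL2RB blocked, Ccr7, Ccl22, Cd40, Cd80 and Cd86 were lower than with aPD1 alone, and Fscn1 was higher. The 6 of 9 members stand beside 27.4% of all genes called in this comparison, 14.5% called lower and 13% called higher. The median log2 fold change was -0.88 over the members and 0.0036 over all genes. Cd83 was not called (edgeR adjusted p = 0.0952), but it was with the set as a term (-0.63 on the log2 scale, edgeR adjusted p = 0.00656) and with only the 2 groups in the fit (edgeR adjusted p = 0.0224).

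Ccl22 ran from 0.403 to 4.09 CPM (median 1.95) in the 11 aPD1 + aIL2RB tumors, and the highest was below the lowest aPD1 tumor at 4.57 CPM. All tumors of the group being below is shared by 2.99% of genes. This gave a log2 difference of -1.62 ± 0.44 (SE) and an edgeR adjusted p of 0.00439. Cd40 ran from 3.79 to 13.5 CPM (median 6.18), with 9 of 11 tumors below the lowest aPD1 tumor and a log2 change of -1.26 ± 0.28 (SE), edgeR adjusted p = 0.000587. Cd80 ran from 0.775 to 2.68 CPM (median 1.39), with 10 of 11 tumors below the lowest aPD1 tumor at 2.52 CPM. On the log2 scale the difference was -1.16 ± 0.27 (SE), at an edgeR adjusted p of 0.000853.

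Cd86 ran from 8.49 to 25.989 CPM (median 15.7), with a log2 change of -0.81 ± 0.19 (SE) at an edgeR adjusted p of 0.000820. Ccr7 ran from 0.937 to 5.13 CPM (median 1.58), with 9 of 11 tumors below the lowest aPD1 tumor. Its log2 change of -0.92 ± 0.33 (SE, edgeR adjusted p = 0.0304) passed the threshold narrowly, and the call was lost without aPD1 replicate 4, 5 or 6 (edgeR adjusted p = 0.0986, 0.0765 and 0.0530). It was also lost with the replicate number as a block in the fit. With treatment by set in the fit, the log2 fold change of Ccr7 was -0.23 in the first and -1.65 in the second set. That difference between sets was not called (edgeR adjusted p = 0.219). Fscn1 rose to 280 ± 18.1 CPM (SD, n = 11) from 244 ± 11.9 CPM (SD, n = 6), and 9 of 11 tumors were above the highest aPD1 tumor. The fitted log2 change was 0.20 ± 0.05 (SE), edgeR adjusted p = 0.00393. Fscn1 thus changed in the opposite direction to the other called members, by a small amount measured at high counts. Of markers of tumor stroma and of MC38 cells there, 3 of 6 fibroblast markers were called higher and 3 lower, 1 of 4 endothelial markers higher, and 1 of 3 MC38 markers higher. Of the fibroblast markers, Col3a1 (3492 against 1826 CPM with aPD1), Dcn (858 against 450 CPM) and Pdgfrb were higher, and Col1a1 (456 against 727 CPM), Bgn and Postn were lower. Their sum, mostly Col3a1, was 3904 to 5873 CPM (median 5148) against 3003 to 3691 CPM (median 3219), while their median log2 fold change was 0.058. Of the MC38 markers, Shisal2b was higher (24.6 against 15.1 CPM) and made up most of the sum, while Krt8 (1.29 against 2.40 CPM) and Krt18 (0.695 against 1.92 CPM) were not called, and the median log2 fold change was -0.90. Their part in the Fscn1 result was not tested.

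With both antibodies, 6 of 9 members were lower than with aPD1 alone, where 27.4% of all genes were called and 14.3% were called lower. Cd83, a surface protein of mature dendritic cells and activated lymphocytes, joined Ccr7, Ccl22, Cd40, Cd80 and Cd86. The median log2 fold change was -0.99 over the members and 0.01 over all genes.

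Ccl22 ran from 0 to 2.25 CPM (median 0.712) in the 11 aPD1 + aGMCSF + aIL2RB tumors, against a lowest aPD1 tumor of 4.57 CPM. Only 0.827% of genes had all tumors of this group below the aPD1 group. Its log2 fold change was -2.72 ± 0.46 (SE, edgeR adjusted p = 1.99e-05), the largest among the 9 tested members in the 3 blockade comparisons with aPD1. Cd40 ran from 2.52 to 19.3 CPM (median 6.23), with a log2 change of -1.26 ± 0.28 (SE) at an edgeR adjusted p of 0.000661. Cd80 ran from 0.958 to 4.35 CPM (median 1.57), with a log2 change of -0.99 ± 0.27 (SE) at an edgeR adjusted p of 0.00425.

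Cd86 ran from 9.97 to 34.2 CPM (median 15.2), with a log2 change of -0.84 ± 0.19 (SE) at an edgeR adjusted p of 0.000670. Ccr7 ran from 0.445 to 3.41 CPM (median 1.71), with a log2 change of -1.18 ± 0.33 (SE) at an edgeR adjusted p of 0.00576. The highest values of Ccr7, Cd40, Cd80 and Cd86 in the group all came from replicate 1, the tumor farthest out on the leading component of the tumors within groups. Without it, 8 of 9 members were called, where 29.9% of all genes were called, 7 lower and Fscn1 higher, with Il12b among the lower. Cd83 ran from 5.88 to 19.6 CPM (median 12.6). Its log2 fold change was -0.63 ± 0.24 (SE, edgeR adjusted p = 0.0432), and the call was lost without aPD1 replicate 2, 4 or 6 (edgeR adjusted p = 0.0609, 0.0811 and 0.133). It was also lost with the replicate number as a block, with scaling by library size only (edgeR adjusted p = 0.0749) and with only the 2 groups in the fit (edgeR adjusted p = 0.0726).

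Il12b was low and scattered. It had 136 counts over the 11 aPD1 + aGMCSF + aIL2RB tumors and 171 over the 6 aPD1 tumors. The levels were 0.103 to 3.69 CPM (median 0.343) and 0.978 to 1.83 CPM (median 1.61). Although 8 of 11 tumors were below the lowest aPD1 tumor, 2 were above the highest, and the log2 fold change of -1.01 ± 0.51 (SE) was not called (edgeR adjusted p = 0.144). It was called with the set as a term (-1.36, edgeR adjusted p = 0.0191), and without replicate 1 or replicate 4 of the group given both antibodies (-1.35 and -1.502, edgeR adjusted p = 0.0407 and 0.0136). Relb stood between 22.8 and 34.1 CPM in all 42 tumors and was called in none of the 10 comparisons.

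**Figure D2:**
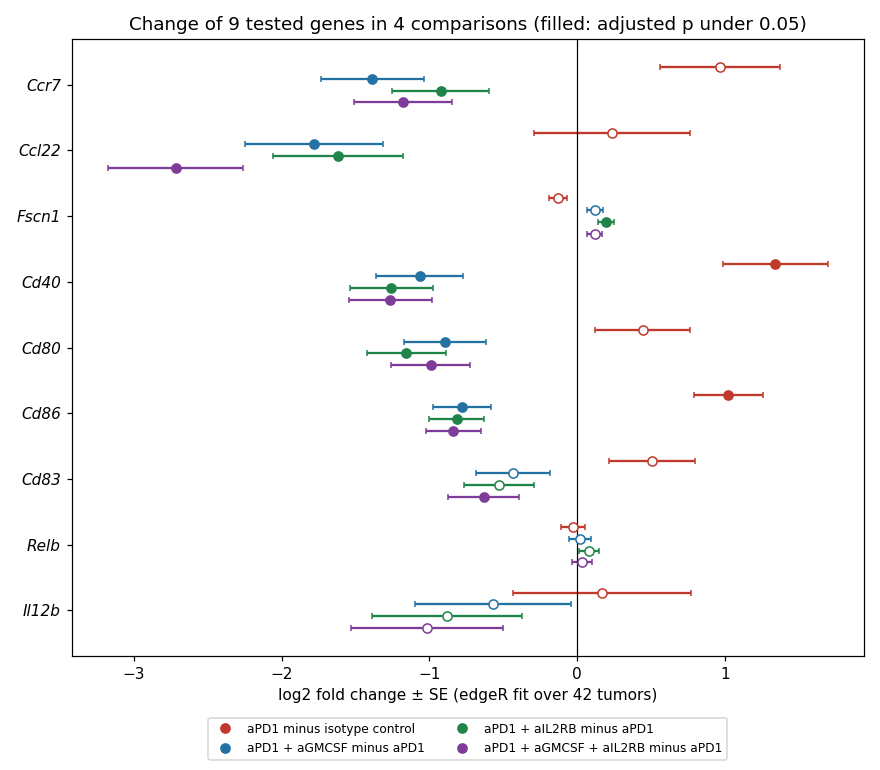
Points give the log2 fold change of 9 genes in 4 comparisons, bars the SE of the edgeR fit over 42 tumors, and filled points an adjusted p below 0.05. Cd40 and Cd86 are filled on the right for aPD1 minus isotype control, and Ccr7, Ccl22, Cd40, Cd80 and Cd86 are filled on the left in all 3 blockade comparisons.

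These comparisons share the aPD1 tumors, so their values are not independent of each other. Against the isotype control, the groups given blocking antibodies had few called members. With aPD1 + aGMCSF, 0 of 9 members were called, where 0% of all genes were called, and 1 member had an unadjusted p below 0.05 in edgeR. DESeq2 also called 0 members there. With aPD1 + aIL2RB, 0 of 9 were called by edgeR and by DESeq2, where 3.2% of all genes were called, and 2 had an unadjusted p below 0.05. With aPD1 + aGMCSF + aIL2RB, 1 of 9 was called, where 10.2% of all genes were called.

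That member was Ccl22. It stood at 7.13, 10.8, 2.77, 1.56 and 2.76 CPM in isotype control replicates 1 to 5. In 8 of the 11 tumors given both blocking antibodies it lay below the lowest of these. The log2 fold change was -2.48 ± 0.48 (SE, edgeR adjusted p = 0.00123), and it was -2.67 within the first set and -2.92 within the second set, called in each. Cd40 and Cd86, in contrast, had mean levels of 6.91 and 16.9 CPM in that group beside 6.49 and 14.9 CPM in isotype control tumors, with log2 fold changes of 0.08 ± 0.31 and 0.18 ± 0.21 (SE).

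No member was called between groups given blocking antibodies in any of the 3 comparisons, by edgeR or DESeq2. The background there was 1.52% of genes for aPD1 + aIL2RB against aPD1 + aGMCSF. It was 2.13% for both antibodies against aPD1 + aGMCSF and 0.00591% for both against aPD1 + aIL2RB. At an unadjusted p below 0.05, edgeR gave 0, 1 and 1 members in these comparisons. Ccl22 was that member. Its log2 fold change was -0.94 ± 0.44 (SE, edgeR adjusted p = 0.261) against aPD1 + aGMCSF and -1.10 ± 0.42 (SE, edgeR adjusted p = 0.637) against aPD1 + aIL2RB.

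Ccl17, which encodes a ligand of CCR4 like CCL22, had the fewest counts of the members, before division by exon length. It had 36, 22, 10, 2 and 2 counts in isotype control replicates 1 to 5, and 2, 6, 2, 5, 4 and 0 counts in aPD1 replicates 1 to 6. In the aPD1 + aGMCSF group, 3 of 9 tumors had a count, with 8 counts in all. In the aPD1 + aIL2RB group, 7 of 11 tumors had a count, with 28 in all and at most 10 in a tumor. In the aPD1 + aGMCSF + aIL2RB group, 0 of 11 tumors had a count, over 207919995 counts in total.

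The isotype control tumors had the highest mean, but their difference from the aPD1 tumors was not called (adjusted exact permutation p = 0.163). Those given both antibodies were all below the lowest isotype control tumor, as in 0.797% of the genes tested. A total of 3 counts over the group given both antibodies would be 0.0144 CPM without TMM scaling. The isotype control tumors pooled to 0.678 CPM on that scale, 47.0-fold above that floor of 3 counts. The aPD1 tumors pooled to 0.165 CPM, 11.5-fold above it. These folds take the pooled levels as exact and do not cover the spread between tumors. Of the 72 isotype control counts, replicates 1 and 2 gave 36 and 22. Replicates 3 to 5 had a mean of 0.227 CPM with TMM scaling. The counts carry a limit. In the whole matrix, values of exactly 2 were 2.12 times as frequent as values of exactly 1, and 19 of the 20 non-zero Ccl17 counts were even. With a floor of 6 counts, the value if both ends of each fragment were counted, the folds are 23.5 and 5.73.

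Two-sided permutation tests of the mean CPM over tumors were run for the 10 pairs of groups and adjusted over them. All were exact except that between the 2 groups of 11 tumors. With both antibodies, Ccl17 was lower than in isotype control (0 against 0.677 ± 0.684 CPM, adjusted exact p = 0.00458), higher in 5 of 5 isotype control tumors. It was lower than in aPD1 tumors (0.183 ± 0.134 CPM, adjusted exact p = 0.0097), where 5 of 6 tumors had a count. It was lower than in aPD1 + aIL2RB tumors (0.117 ± 0.128 CPM, adjusted permutation p = 0.0118 from 100000 permutations), where 7 of 11 had a count. The difference from aPD1 + aGMCSF tumors (0.0436 ± 0.0684 CPM) was not called (adjusted exact p = 0.163).

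The aPD1 + aGMCSF group was lower than the isotype control (adjusted exact p = 0.025) and the aPD1 group (adjusted exact p = 0.0456), and the aPD1 + aIL2RB group was lower than the isotype control (adjusted exact p = 0.0497). An edgeR fit of 26110 genes with a total of at least 5 counts called Ccl17 for both antibodies against isotype control (adjusted p = 0.000208) and against aPD1 (adjusted p = 0.00117), and in none of the other 8 comparisons. Without isotype control replicate 1, which gave 36 of the 72 counts of its group, the group pooled to 0.423 CPM, 29.3-fold above the floor of 3 counts. The exact permutation p against the group given both antibodies was 0.00147 without it. That value is the same whichever isotype control tumor is left out. All tumors given both antibodies are at 0 and all isotype control tumors are above 0. The test therefore cannot show how far the difference rests on 1 high tumor.

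**Figure D3:**
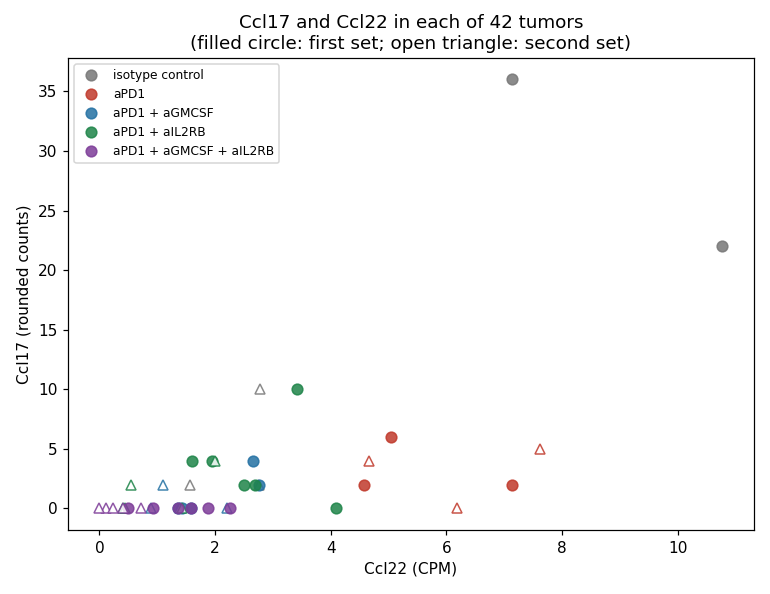
Each point is 1 of 42 tumors, with Ccl22 in CPM on the horizontal and Ccl17 in rounded counts on the vertical axis. The isotype control tumors with 36 and 22 counts of Ccl17 are also at 7.13 and 10.8 CPM of Ccl22, while all 11 tumors given both blocking antibodies lie at 0 counts and at or below 2.25 CPM.

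The 2 isotype control tumors with most Ccl17 and Ccl22 were replicates 1 and 2, which form the first set of that group. Mean Ccl17 was 1.35 CPM in them and 0.227 CPM in the 3 tumors of the second set. Mean Ccl22 was 8.95 and 2.36 CPM. In aPD1 tumors, Ccl22 had means of 5.58 CPM in the first set and 6.15 CPM in the second set. With both antibodies Ccl22 stood at 1.42 CPM in the first set and 0.296 CPM in the second set, while Ccl17 was at 0 in both.

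The sets differed in how far some members moved. These values are descriptions, since the sets were read from the same tumors. On the leading component the tumors given both antibodies lay on opposite sides by set, while the aPD1 tumors were mixed. A difference between sets in that comparison may therefore be partly built in. For both antibodies against aPD1, 4 of 9 members were called for a difference between sets, where 9.18% of all genes were called. There, the log2 fold changes of Cd40 were -0.48 in the first and -2.38 in the second set, a difference of -1.90 ± 0.48 (SE, edgeR adjusted p = 0.0101). Cd83 had log2 fold changes of -0.05 and -1.54, a difference of -1.49 ± 0.30 (SE, edgeR adjusted p = 0.00220). Ccl22 had -1.98 and -4.31, a difference of -2.32 ± 0.69 (SE, edgeR adjusted p = 0.0285). Cd86 had -0.41 and -1.45, a difference of -1.04 ± 0.33 (SE, edgeR adjusted p = 0.0372). The other 5 tested members were not called, Il12b with a difference of -2.61 ± 0.88 (SE, edgeR adjusted p = 0.0528). Ccr7, also not called, had -0.39 and -2.10, a difference of -1.72 ± 0.59 (SE, edgeR adjusted p = 0.0586). For both against aPD1 + aIL2RB, 1 of 9 was called, Cd40, where 1.94% of all genes were called.

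The sets were also fitted alone with edgeR. Within the first set, none of the 9 members was called for aPD1 + aGMCSF against aPD1, where 0.155% of all genes were called. The log2 fold changes there were -1.51 for Ccl22 (edgeR adjusted p = 0.0704), -0.61 for Cd86 (0.225) and -0.65 for Ccr7 (0.464), beside -1.78, -0.78 and -1.39 over all tumors. For aPD1 + aIL2RB, 3 of 9 were called (15.6% of all genes), and for both antibodies 1, Ccl22 (5.37% of all genes). Within the second set, 7, 7 and 8 of 9 were called, Fscn1 higher and the others lower in each, where 16.4%, 22% and 29.6% of all genes were called. For aPD1 against isotype control, none of the 9 was called in the first set, which has 2 and 3 tumors in these groups and 0.0115% of all genes called. Cd86 had a log2 fold change of 0.82 there and Cd40 of 0.75, beside 1.02 and 1.34 over all tumors. In the second set Cd40, Cd86, Ccr7 and Cd83 were called higher, where 13% of all genes were called. Ccl22, Cd40 and Cd86 were called lower with aPD1 + aIL2RB than with aPD1 within each set.

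**Figure D4:**
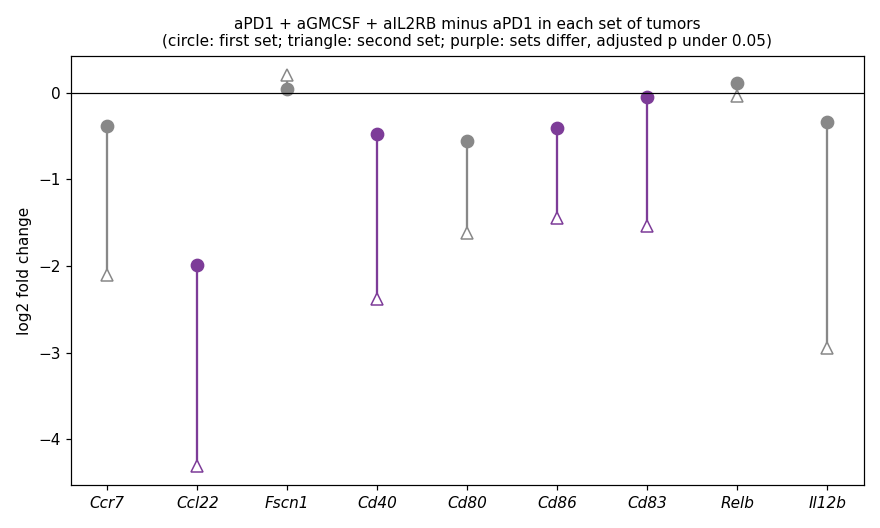
Circles give the log2 fold change of aPD1 + aGMCSF + aIL2RB minus aPD1 in the first set and triangles that in the second set, from 1 edgeR fit with treatment by set. Ccl22, Cd40, Cd86 and Cd83, in purple, differ between sets, and Cd40 goes from -0.48 to -2.38.

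Among tumors of the same group, most members correlated positively. With group means subtracted from log2 CPM over 42 tumors, Spearman's rho was 0.759 for Cd40 and Cd86, 0.720 for Cd80 and Cd86 and 0.741 for Ccl22 and Il12b. Fscn1 was inverse to each of Ccr7, Ccl22, Cd40, Cd80, Cd86, Cd83 and Il12b, from -0.361 to -0.551. Relb lay between -0.165 and 0.225 with all others. These values are descriptions, since the sets shift several members at once. With means of group and set subtracted, Cd40 and Cd86 had 0.557, Cd80 and Cd86 0.563, Ccl22 and Il12b 0.530, and Cd83 and Ccl22 went from 0.607 to -0.0701. Cd83 then also had 0.0557 with Ccr7, 0.0518 with Cd40, 0.0931 with Cd80 and -0.05 with Il12b, but 0.523 with Cd86. Fscn1 had -0.168 with Cd83, -0.227 with Ccr7 and -0.255 with Ccl22. It had -0.373 to -0.516 with Cd40, Cd80, Cd86 and Il12b.

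**Figure D5:**
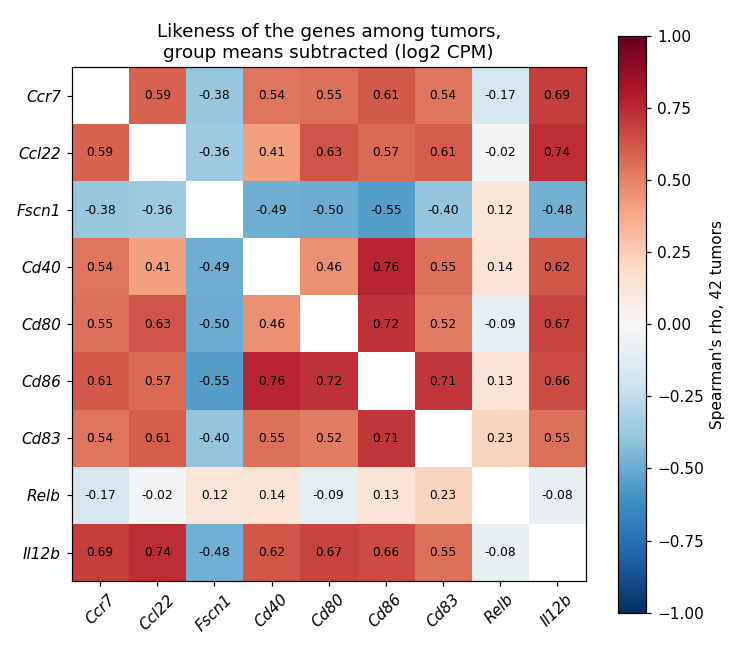
Each cell gives Spearman's rho of a pair of genes over 42 tumors after group means of log2 CPM were subtracted, from blue (-1) to red (1). The row of Fscn1 is blue except against Relb, and Cd40 with Cd86 has the highest value, 0.76.

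The genes most like each member were taken from 13731 genes of at least 1 CPM by the same measure over 42 tumors. Cd40 had the closest neighbors, Tap1, which encodes a peptide transporter for MHC class I, at rho 0.929 and the class I gene H2-T23 at 0.923. Those of Cd86 were Entpd1 at 0.907, Bcl2a1b at 0.878 and Havcr2, which encodes TIM-3, at 0.877. Those of Cd83 were the gene ENSMUSG00000029333 at 0.853, Nedd9 at 0.843 and Cxcl13 at 0.822. Nearest to Cd80 were Irf4 at 0.755, Btg2 at 0.752 and Stat4 at 0.746, and nearest to Ccr7 were Jarid2 at 0.771, Lbp at 0.750 and Ccl8 at 0.747.

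Nearest to Ccl22 were the complement gene C1ra at 0.758, Lyz1 at 0.744 and the member Il12b at 0.741. Nearest to Il12b were Gm4759 at 0.777, C1s1 at 0.761 and Gm4951 at 0.758. Fscn1 was most like Atp5a1 at 0.799, Ap2m1 at 0.798 and Cox8a at 0.794, among them a subunit of ATP synthase and one of cytochrome c oxidase. Relb had no close neighbor, with Stx11 at 0.562 the highest. With means of group and set subtracted, the values for Cd40 were 0.744 with Tap1 and 0.787 with H2-T23, and that of Ccl22 with C1ra went to 0.236. Those of Cd83 went to 0.427, 0.568 and 0.264 in the order above.

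Other genes of the same processes were followed in lists chosen, like the members, with earlier results of these data known. Their counts stand beside 8.71% of all genes called for aPD1 against isotype control, and 13.5%, 27.4% and 27.4% for aPD1 + aGMCSF, aPD1 + aIL2RB and both against aPD1. Of 12 other genes of mature dendritic cells, all tested, 2 rose and 1 fell with aPD1. Samsn1 (log2 fold change 0.72) and Cd200 (0.56), an inhibitory surface protein, were higher, and Cacnb3 (-0.36) was lower. Against aPD1, 0 were higher and 3 lower with aPD1 + aGMCSF, 5 lower and 2 higher with aPD1 + aIL2RB, and 6 lower and 2 higher with both. The median log2 fold change of the list was 0.48 with aPD1 and -0.48, -0.49 and -0.43 in the blockade groups against aPD1. Samsn1 was lower in each, with log2 fold changes of -0.68, -1.03 and -0.996. Zmynd15 had -1.31 and -1.21 in the groups with aIL2RB, where Nudt17 was higher at 0.87 and 0.71. Socs2, a target of cytokine signaling, had -1.05 with aPD1 + aGMCSF.

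Of 12 other costimulatory and coinhibitory ligands, most of the B7 and TNF families, 10 were tested. With aPD1, 2 rose, Cd274, which encodes PD-L1 (log2 fold change 1.07), and Cd48, of the CD2 family (0.54). Against aPD1, 5, 7 and 8 were lower with aPD1 + aGMCSF, aPD1 + aIL2RB and both, and none was higher, with medians of -0.57, -0.86 and -0.96. Tnfsf14, which encodes LIGHT, had log2 fold changes of -1.35, -1.18 and -1.23 in these comparisons, and Cd274 had -1.16 with aPD1 + aGMCSF and -1.21 with both.

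On the T cell side of these pairs, of 9 receptors for these ligands, all tested, 1 rose with aPD1, Tnfrsf14, the receptor of LIGHT, by 0.46 on the log2 scale. Against aPD1, 5 were lower with aPD1 + aGMCSF and 9 of 9 with aPD1 + aIL2RB and with both, with medians of -1.18, -1.98 and -1.94. Of 8 T cell markers, 3, 7 and 8 were lower in these comparisons, with medians of -1.25, -2.99 and -2.59. The part of T cell numbers in the receptor values was not tested. Icos had log2 fold changes of -1.85, -2.94 and -2.68. Cd28, the receptor of CD80 and CD86, had -2.31 with aPD1 + aIL2RB, and Ctla4 had -1.71 with aPD1 + aGMCSF and -2.35 with both.

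Of 10 genes of the IL-12 family and its receptors, 9 were tested. With aPD1, 4 rose, among them Il12rb2 (log2 fold change 1.93), the signaling chain of the IL-12 receptor, Stat4 (1.37) and Tyk2 (0.48). Against aPD1, 5, 6 and 6 were lower with aPD1 + aGMCSF, aPD1 + aIL2RB and both, and none was higher, with medians of -0.38, -0.72 and -0.83. Il12rb2 had -1.72, -3.38 and -3.04, Stat4 -1.02, -2.03 and -1.92, and Ebi3, a partner chain of IL-27, -0.81, -1.05 and -0.96. Il12a, the partner of p40 in IL-12, was not called in any of these, at 0.497 CPM in aPD1 tumors.

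Of 18 genes of CD40 and NF-κB signaling, 17 were tested, and their median log2 fold change lay between -0.01 and 0.02 in these 4 comparisons. With aPD1, 2 were higher and 1 lower. Rel, an NF-κB subunit, was higher (0.44), and Map3k14, which encodes the NIK kinase upstream of RELB, was lower (-0.29). Against aPD1, 2 were higher and 1 lower with aPD1 + aGMCSF, 5 were lower with aPD1 + aIL2RB, and 1 was higher and 4 lower with both. The 5 of 17 called in each of the last comparisons are near the 27.4% of all genes called there. Tnfaip3, an inhibitor of NF-κB, had -0.46 with aPD1 + aIL2RB and -0.47 with both. Of 4 partners of CCR7 and CCR4, 2 were tested, none was called with aPD1 and 1 was lower with aPD1 + aGMCSF.

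Markers of the cells that could carry the members were summed in each tumor. The 8 markers of monocytes and macrophages stood at 2517 to 3066 CPM (median 2654) in isotype control and 2930 to 5593 CPM (median 3970) in aPD1 tumors. They had medians of 2548, 2568 and 2584 CPM in the aPD1 + aGMCSF, aPD1 + aIL2RB and both antibody groups, with 7, 6 and 6 of 8 lower than with aPD1. With aPD1, 7 of 8 were called higher. Macrophage markers therefore moved with Cd40 and Cd86, and their part in these results was not tested. The 6 B cell markers were low, at a median of 5.402 CPM in isotype control and 10.6 CPM in aPD1 tumors, with 1 called higher. They had medians of 5.57, 3.28 and 3.96 CPM in the blockade groups, with 0, 3 and 2 of 6 lower than with aPD1. Their part in the values of Cd40, Cd80, Cd86 and Cd83 was not tested.

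The 8 T cell markers had medians of 55.3 CPM in isotype control, 102.7 CPM in aPD1, 43.4 CPM in aPD1 + aGMCSF, 11.5 CPM in aPD1 + aIL2RB and 14.6 CPM with both. None was called higher with aPD1, and 3, 7 and 8 were lower than with aPD1 in the blockade groups. Ccr7 is also a T cell gene, and the part of T cells in its values, or in those of Il12rb2 and Stat4, was not tested. Granulocyte markers had medians of 11.4 CPM in isotype control and 32.8 CPM in aPD1 tumors, with 1 of 4 tested called higher. In the blockade groups the medians were 11.7, 11.4 and 11.3 CPM, with 3, 1 and 2 of these 4 lower than with aPD1. The gene called with aPD1, Csf3r, made up most of the sum, at 10.7 and 30.1 CPM, while S100a8, S100a9, Retnlg and Cxcr2 each had group means below 1 CPM.

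Markers of dendritic cells moved in different directions. Flt3, the receptor that sustains dendritic cells, stood at 1.18 CPM in isotype control and 1.61 CPM in aPD1 tumors and was not called in these 4 comparisons. Itgax, which encodes CD11c and which macrophages also express, was lower with aPD1 + aIL2RB than with aPD1 (35.8 against 62.1 CPM, -0.80 on the log2 scale) and was not called in the other 3. Zbtb46, a transcription factor of conventional dendritic cells that endothelium also expresses, was higher in each blockade group than with aPD1, by 0.37, 0.34 and 0.38 on the log2 scale. Of 5 markers of type 1 dendritic cells, 1 was higher with aPD1, Irf8 (0.84), and 1, 4 and 4 were lower in the blockade groups than with aPD1. Xcr1, the chemokine receptor of that type, had -2.33 with aPD1 + aIL2RB and -2.01 with both. Of 4 markers of type 2 dendritic cells, 3 were tested and 2 were lower in each blockade group. Clec10a and Mgl2, which macrophages also express, had log2 fold changes of -1.81 and -2.16 with both antibodies. No marker of these dendritic cell lists was at 0 in all tumors of a group. Of 4 markers of plasmacytoid dendritic cells, 2, 1 and 1 were lower in the blockade groups than with aPD1, and none was called between aPD1 and isotype control.

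Of 4 markers of Langerhans cells and skin, 0, 1 and 4 were lower than with aPD1 in the blockade groups, with a median log2 fold change of -2.44 with both. Their sums had medians of 2.45 CPM in isotype control, 4.88 CPM in aPD1 and 1.72, 1.61 and 1.06 CPM in the blockade groups. Of 4 markers of lymph node stroma, 3 were tested and 0, 1 and 1 were lower, the chemokine Cxcl13, at 63.4 CPM with aPD1, 7.23 CPM with aPD1 + aIL2RB and 11.9 CPM with both. The sum of the Langerhans and skin list, like Ccl22, had its lowest group median with both antibodies. So did other sums, among them those of type 2 dendritic cells (2.34 CPM), other mature dendritic cell genes (243 CPM) and other ligands (97.1 CPM). The part of these lists, or of the lymph node stroma list, in the members' values was not tested.

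Fscn1 did not move with the genes it is listed with as a marker of mature dendritic cells. It stood at 213 to 309 CPM in all tumors and was inverse among tumors to Ccr7, Cd80 and Cd86. With aPD1 + aIL2RB it was higher where Ccr7, Cd80 and Cd86 were lower. Relb showed no called difference in any comparison. In these bulk tumors the 10 genes therefore did not move as 1 group, with Fscn1 and Relb apart from the members called lower under blockade. Their levels within mature dendritic cells were not measured.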

How the data were processed

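RNA of whole tumors was sequenced as 100 bp paired ends from poly(A) libraries. The authors aligned reads with Bowtie 1.2.3 to the 8 founder haplotypes (GRCm38, GENCODE vM23) and deposited expected counts per gene from gbrs, summed over haplotypes and not normalized. Of these values, 15.2% were not whole, and all were rounded here. Gene positions come from GENCODE vM21 on GRCm38 and promoters from RefSeq.

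Groups follow the labels, with each replicate a separate tumor. edgeR 4.0.16 (R 4.3.3) fitted all 42 tumors with TMM scaling and a count minimum of 10 (total 15), which kept 16932 of 26811 genes. Quasi-likelihood tests gave 10 comparisons with Benjamini-Hochberg adjustment within each. Ccl17 failed the count minimum and was tested by permutation over tumors. Total counts of 7155486 to 24101674 set the precision. The floors for Ccl17 cover counting error only, while SDs and SEs also hold variation between tumors. The code was tested on simulated data. All 10 members were named, and of each list up to 3 called genes per comparison, those with the largest absolute log2 fold change at a mean of at least 1 CPM. Il12a, Flt3, Zbtb46 and the genes compared side by side across groups were added for their role. Members and lists were chosen with earlier results of these data known. DESeq2 1.42.0, other scalings, filters, designs and left-out tumors were alternatives. The split into sets was seen in the tumors and is named by no label. One gene that the rule for likeness names is not reported here.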

Additional observations from a re-analysis of the deposited data

Results flagged for a closer look

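In the aPD1 group, Fscn1 stood at 267.2 CPM in replicate 3, set apart from the next tumor at 246.0 CPM. It was the only tumor that stood apart in this way among 30 groups of member values examined, where chance gives about 1 in 20. Those were the values of the isotype control, aPD1 and aPD1 + aGMCSF groups. The aPD1 + aIL2RB and aPD1 + aGMCSF + aIL2RB groups, of 11 tumors each, were not examined in this way.

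Of 45 tests of whether a treatment difference was unequal in the 2 sets of tumors, 5 passed in edgeR, 4 in a comparison where 9.18% of all genes passed and 1 where 1.94% did. For aPD1 + aGMCSF + aIL2RB against aPD1, the log2 fold change in the second set minus that in the first was -2.32 for Ccl22, -1.90 for Cd40, -1.04 for Cd86 and -1.49 for Cd83. For aPD1 + aGMCSF + aIL2RB against aPD1 + aIL2RB it was -1.53 for Cd40, from 0.56 in the first to -0.97 in the second set (edgeR adjusted p = 0.0415). The sets were read from these same tumors, so these values are descriptions. No label names the sets, and what differs between them was not tested.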

How the results depend on the processing

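For aPD1 against isotype control, the blockade groups against aPD1 and both against aPD1 + aIL2RB, 672 log2 fold changes of members under alternatives kept their direction and side of the threshold, 27 lost and 17 gained a call, and 20 changed sign. Counts of members called moved mainly between sets, which have fewer tumors. Within the first set they were 0 for aPD1 against isotype control, 1 for aPD1 + aGMCSF and 1 for aPD1 + aIL2RB against isotype control, 2 for both against isotype control, and 0, 3 and 2 for the 3 blockade groups against aPD1. Each 2 includes Ccl17, which passed the count minimum there through the isotype control tumors where it is high. Within the second set they were 4 for aPD1 and 3 for both against isotype control, and 2 for both against aPD1 + aGMCSF. For both against isotype control, 2 were called at a total of at least 5 counts, 0 at 10 counts in every tumor, where Ccl22 was not testable, and 1 to 2 leaving out each tumor, 2 without aPD1 + aGMCSF + aIL2RB replicate 1. Set as a term gave 1 for aPD1 + aIL2RB against isotype control, Ccl22, and 6, 7 and 7 for the blockade groups against aPD1, gaining Cd83 in the first 2 and Il12b in the last. Ranges over left-out tumors were 4 to 5, 5 to 6 and 5 to 8 for the blockade groups against aPD1. Within the first set the sign changed for aPD1 against isotype control in Ccl22 (-0.68), Cd83 (-0.081) and Il12b (-0.31), for aPD1 + aGMCSF against aPD1 in Cd83 (0.019), and for both against aPD1 + aIL2RB in Cd40 (0.56), Cd86 (0.22), Cd83 (0.15) and Il12b (0.31). Within the second set it changed in Relb (0.11 for aPD1 against isotype control, -0.031 and -0.052 for aPD1 + aGMCSF and both against aPD1) and Cd80 (-0.11 for both against aPD1 + aIL2RB). Cd40 was 0.0014 there with DESeq2, and Relb -0.0067 for aPD1 + aGMCSF against aPD1 at 10 counts in every tumor. Leaving out 1 tumor gave Relb -0.074 to 0.025 for aPD1 against isotype control, -0.037 to 0.049 for aPD1 + aGMCSF and -0.021 to 0.063 for both against aPD1, Il12b -0.087 to 0.35 for aPD1 against isotype control and Cd80 -0.080 to 0.12 for both against aPD1 + aIL2RB. The causes were not tested. Same-numbered tumors had correlations of -0.168 to 0.193, so the numbers do not pair them. A replicate block gave 2 members for aPD1 against isotype control, 1 for both against isotype control, 5, 5 and 5 against aPD1 and 0 elsewhere, losing Ccr7 with aPD1 + aIL2RB (edgeR adjusted p = 0.167) and Cd83 with both (0.139). Depth limited Ccl17, which failed the count minimum.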
